A study of Mus musculus with 5 samples.

Results

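Schwann cells wrap and support the axons of peripheral nerves, and they descend from the neural crest. Their markers were read here in cultured mouse muscle cells. The set holds 8 genes, Sox10, Foxd3, Erbb3, Ngfr, Gfra3, Cdh19, S100b and Mbp, chosen by name as markers of this lineage and found by Ensembl identifier among the 54232 genes of the deposited table. RNA was sequenced from primary myoblasts of WT mice (n = 3) and of mice homozygous for the Elmo2EID knock-in allele (Elmo2EID/EID, n = 2), all after 72 h in differentiation medium. Myoblasts are muscle precursors that fuse into myotubes, and ELMO2 is a scaffold protein that acts with DOCK1 to activate RAC1. The EID allele encodes an ELMO2 biased towards its open form, and it was introduced by homologous recombination, so every cell of the animal carries it. The reporting summary of the study describes its mice as of mixed C57BL6 and 129SV background, and of young adult age when their muscle was taken for primary myoblasts, and the sex is not given in the sources used here. The cells came from leg muscle and were sorted on magnetic beads with a satellite cell isolation kit and antibodies to Integrin α7, before culture on gelatin. Bulk libraries do not resolve which cells of such a culture carry a transcript.

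Values are normalized counts, which are the reads of a gene divided by a size factor of the sample. The reads behind them were recovered, with totals of 35021856 to 49381544 per sample, and 3 reads correspond to 2.65 to 3.73 normalized counts. Fold changes compare Elmo2EID/EID with WT as log2(normalized count + 1), a scale that understates changes of genes near 0 and gives a single low sample much weight. They were tested with limma over 18156 genes, those that reached 5 normalized counts in any sample. Skeletal muscle identity was clear, with Des, the muscle intermediate filament gene, at 210096 to 232025 normalized counts and Myog, a transcription factor of differentiating myoblasts, at 47286 to 53544. Elmo2 itself had 1642, 1539 and 1660 normalized counts in WT, against 1441 and 1327 in Elmo2EID/EID (log2 fold change -0.22, standard error 0.07, limma adjusted p = 0.226), and since the allele changes the coding sequence its RNA level does not check the labels. The study states that its primary cell experiments typically drew on independent mice, but the labels do not say so of these samples, and p-values measure the spread between them, which may be technical.

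SOX10 is the transcription factor that specifies Schwann cells and other glia and pigment cells from the neural crest and is kept on in Schwann cells throughout life. FOXD3 acts earlier, in the neural crest itself. ERBB3 receives the axonal growth factor neuregulin together with ERBB2, which Schwann cells need to survive and to migrate, and muscle cells also make ERBB3. NGFR, the p75 neurotrophin receptor, is high on immature and non-myelinating Schwann cells and is also made by myoblasts, while GFRA3 is the co-receptor through which artemin acts on RET. CDH19 is a cadherin of Schwann cell precursors, S100B is a calcium-binding protein used as a general Schwann cell marker, and MBP is a structural protein of myelin.

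The 8 genes did not behave as 1 group. Sox10, Cdh19, Ngfr and S100b varied strongly and in the same order over the 5 samples, with WT replicate 2 lowest, WT replicate 1 next, Elmo2EID/EID replicate 2 in the middle, and WT replicate 3 and Elmo2EID/EID replicate 1 at the top. Mbp followed that order over a narrow range. The reads of S100b did not resolve WT replicate 1, Elmo2EID/EID replicate 2 and WT replicate 3 from each other. Erbb3, by far the most abundant, and Foxd3 did not follow it, and Gfra3 had at most 1 read in any sample. No member passed limma at an adjusted p-value of 0.05 (0 of the 7 tested, against 2.23% of all genes tested), and 1 of the 7, Foxd3, had an unadjusted p-value under that level, as did 2766 of the 18156 genes tested. The quasi-likelihood test of edgeR, which called 2.25% of all genes, and DESeq2, which called 5.34%, each also called 0 of the 7. Each had 1 of the 7 below 0.05 unadjusted, as were 2817 genes with edgeR and 2359 with DESeq2.

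**Figure D1:**
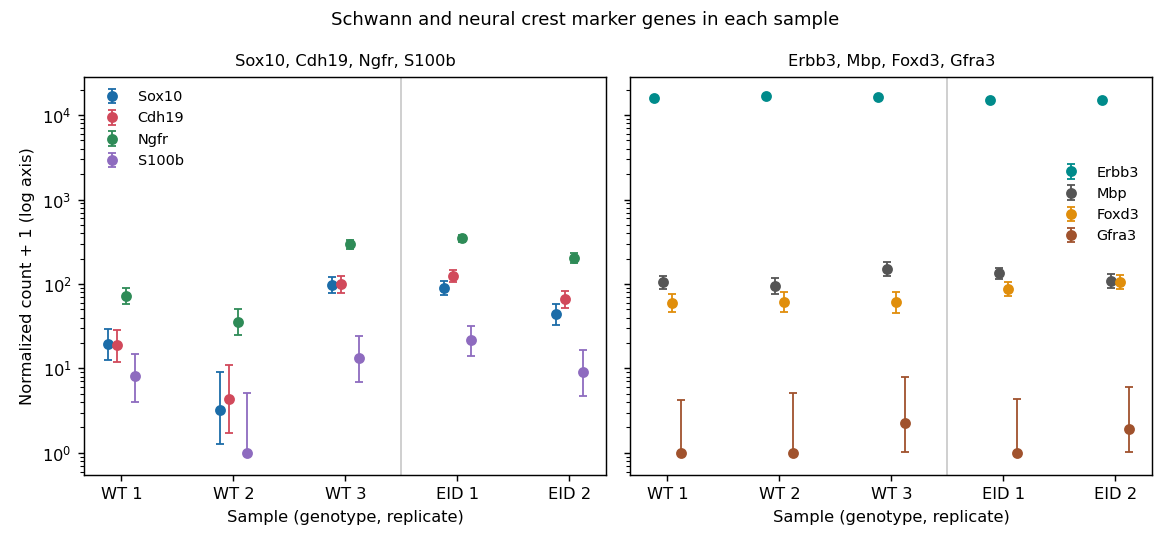
Level of the 8 marker genes in each sample. Each point is 1 gene in 1 sample as normalized count + 1 on a log axis, with bars for the 95% Poisson interval of its reads, and the grey line parts the WT from the Elmo2EID/EID (EID) samples. Sox10, Cdh19, Ngfr and S100b on the left are lowest in WT 2, whereas Erbb3, Mbp and Foxd3 on the right stay within a factor of 1.77 between samples and Gfra3 sits at or next to 0.

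Sox10 (ENSMUSG00000033006, GRCm38 chr15:79154908-79165240, minus strand) had 18.6, 2.24 and 97.0 normalized counts in WT replicates 1, 2 and 3, and 89.4 and 43.0 in Elmo2EID/EID replicates 1 and 2. These rest on 21, 2, 78, 100 and 48 reads. The WT samples enclosed both Elmo2EID/EID samples, and the highest sample was a WT sample. Within WT, replicate 3 stood 5.23 times above replicate 1 (95% exact interval of the ratio from the reads, 3.19 to 8.91) and 43.2 times above replicate 2 (11.6 to 363). Elmo2EID/EID replicate 1 could not be told from WT replicate 3 by their reads, with a ratio of 0.922 (0.679 to 1.26), but was 2.08 times above its own replicate 2 (1.46 to 3.00). These intervals, here and below, cover counting error only. The fitted log2 fold change was 1.78 with a standard error of 1.27 (limma adjusted p = 0.577), smaller than the 4.92 log2 units that parted the WT samples from each other. It was 0.53 without WT replicate 2 and 2.99 without WT replicate 3. In bulk RNA, fewer cells of a type and less RNA per cell cannot be told apart, and this holds for every level given here.

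Foxd3 (ENSMUSG00000067261, chr4:99656299-99658622, plus strand) had 59.2, 60.6 and 59.7 normalized counts across WT, against 86.8 and 104.9 in Elmo2EID/EID, from 48 to 117 reads. The WT samples lay within 0.03 log2 units of each other, and both Elmo2EID/EID samples lay above them. The log2 fold change was 0.66 (standard error 0.19), with an unadjusted p of 0.0095 and an adjusted p of 0.153 from limma. Adjusted p-values were 0.155 from edgeR and 0.187 from DESeq2. Foxd3 and Erbb3 were the 2 of 7 tested members whose groups did not overlap, beside 32.6% of all genes tested. The WT samples that differed 43.2-fold in Sox10 were thus alike in Foxd3, with a ratio of 0.985 between replicates 3 and 2.

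Among the receptors, Ngfr (ENSMUSG00000000120, chr11:95568818-95587735, minus strand) had 71.6, 34.8 and 295 normalized counts across WT, against 344 and 201 in Elmo2EID/EID. WT replicate 3 lay between the Elmo2EID/EID samples, and the other WT samples lay below both. WT replicate 3 was 4.12 times above replicate 1 (3.19 to 5.37) and 8.47 times above replicate 2 (5.81 to 12.8), a narrower range than that of Sox10. Elmo2EID/EID replicate 1 was 1.71 times above replicate 2 (1.45 to 2.03). The log2 fold change was 1.53 (standard error 0.80, limma adjusted p = 0.434), and it moved to 0.85 without WT replicate 2 and to 2.37 without WT replicate 3.

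Erbb3 (ENSMUSG00000018166, chr10:128567523-128589652, minus strand) had 15905, 16916 and 16308 normalized counts across WT, against 15171 and 15067 in Elmo2EID/EID. Per kilobase of exon it averaged 2639 normalized counts, against 54.9 for Ngfr, 31.9 for Foxd3, 16.4 for Sox10, 14.4 for Cdh19, 13.9 for Mbp and 6.49 for S100b. The Elmo2EID/EID samples lay just below the WT samples, with a log2 fold change of -0.11 (standard error 0.06, limma adjusted p = 0.430). The highest sample of Erbb3 was WT replicate 2, the lowest sample of Sox10. Gfra3 (ENSMUSG00000024366, chr18:34689898-34720387) had 1 read in WT replicate 3 and 1 in Elmo2EID/EID replicate 2, and 0 in the other 3 samples, which allows up to 2.65 normalized counts in WT replicate 1, 3.37 in WT replicate 2 and 2.68 in Elmo2EID/EID replicate 1 (3 reads). It was below the filter and was not tested, so that 7 of the 8 members were.

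Cdh19 (ENSMUSG00000047216, chr1:110888326-110977584, minus strand) gave nearly the same profile as Sox10. Its normalized counts were 17.7, 3.37 and 98.2 across WT, against 124 and 65.4 in Elmo2EID/EID, from 3 to 139 reads. WT replicate 3 fell between the Elmo2EID/EID samples, and the other WT samples were far lower. Cdh19 in WT replicate 3 was 5.56 times above WT replicate 1 (3.37 to 9.59) and 29.2 times above WT replicate 2 (9.63 to 145), and Elmo2EID/EID replicate 1 was 1.90 times above replicate 2 (1.42 to 2.56). Cdh19 had the highest fitted difference among the members, a log2 fold change of 2.18 with a standard error of 1.16 (limma adjusted p = 0.441). Leaving out WT replicate 2 gave 1.08, and leaving out WT replicate 3 gave 3.34.

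S100b (ENSMUSG00000033208, chr10:76253853-76261159, plus strand) was the lowest of the 7 tested genes. It had 8, 0 and 10 reads across WT, against 23 and 9 in Elmo2EID/EID, or 7.07, 0, 12.4, 20.6 and 8.07 normalized counts. The order over samples was again that of Sox10 apart from its top pair, though WT replicates 3 and 1 could not be told apart by their reads (ratio 1.76, 0.625 to 5.13). Elmo2EID/EID replicate 2 could not be told from WT replicate 1 (1.14, 0.391 to 3.40) or from WT replicate 3 (0.649, 0.233 to 1.78) either. The log2 fold change was 1.55 (standard error 1.10, limma adjusted p = 0.575), with 0.43 without WT replicate 2 and 2.30 without WT replicate 3. With 5 in place of 1 added to the normalized counts it was 0.85. The locus overlaps Dip2a on the opposite strand, which had 503 to 595 normalized counts and did not share the pattern. Reads were counted by strand, and the part of Dip2a reads in the S100b counts was not tested.

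Mbp (ENSMUSG00000041607, chr18:82475146-82585637) had 104, 94.2 and 150 normalized counts across WT, against 132 and 108 in Elmo2EID/EID. Its order matched that of Sox10 in full, from WT replicate 2 at the bottom to WT replicate 3 at the top, but the highest sample was 1.60 times the lowest, against 43.2 times for Sox10. The reads did not resolve the neighbours in that order, with ratios of 1.11 for WT replicate 1 over 2 (0.829 to 1.48), 1.03 for Elmo2EID/EID replicate 2 over WT replicate 1 (0.794 to 1.342) and 1.23 for Elmo2EID/EID replicate 1 over 2 (0.961 to 1.58). WT replicate 3 was resolved above WT replicate 1 (1.44, 1.11 to 1.88) and above WT replicate 2 (1.60, 1.20 to 2.13). The log2 fold change was 0.07 (standard error 0.24, limma adjusted p = 0.927). The Mbp locus also gives rise to golli transcripts, which are made outside myelinating cells, and gene-level counts do not separate them from those of the myelin protein.

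**Figure D2:**
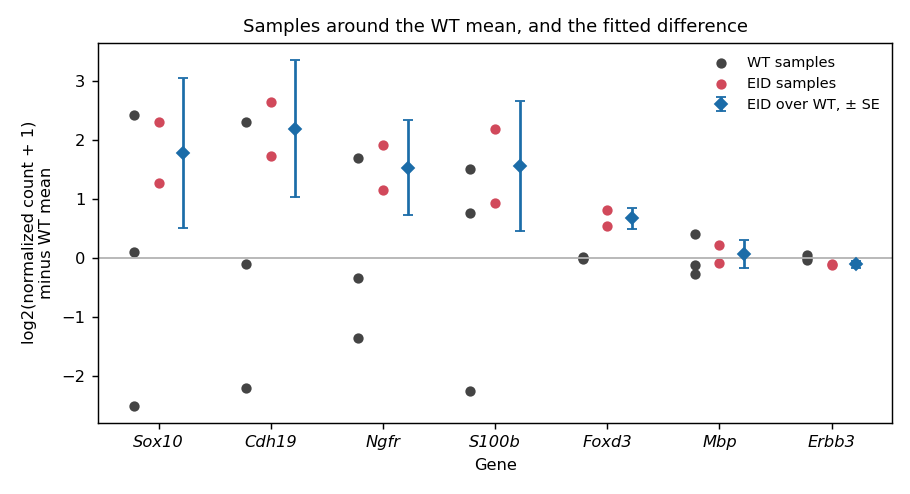
Samples and fitted difference for the 7 tested members. Dots give log2(normalized count + 1) of each sample minus the WT mean, in black for WT and in red for Elmo2EID/EID (EID), and blue diamonds give the limma log2 fold change with bars of 1 standard error. The WT dots of Sox10, Cdh19, Ngfr and S100b spread over more log2 units (4.92, 4.51, 3.05 and 3.75) than their fitted differences of 1.53 to 2.18, while those of Foxd3, Mbp and Erbb3 lie close together.

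The order WT replicate 2 < WT replicate 1 < Elmo2EID/EID replicate 2 < WT replicate 3 and Elmo2EID/EID replicate 1 was held by 5 of the 7 tested members, namely Sox10, Cdh19, Ngfr, S100b and Mbp, though for S100b and Mbp the reads did not resolve every step. It was held by 523 of all genes tested (2.88%), and the order was chosen after the members' values were seen, so no test was made of it. WT replicate 2 was the lowest sample for the same 5 members and for 22.2% of all genes. A level in WT replicate 3 at least 4 times that of both other WT samples was found for 3 members, Sox10, Cdh19 and Ngfr, and for 70 of all genes (0.386%). Ngfr passed that cut-off only just, at 4.12 times WT replicate 1. A range of at least 2 log2 units within WT was found for 4 members and for 3.58% of all genes, and for S100b it rests on 0 reads in WT replicate 2. These cut-offs were also not planned before the members' values were seen, and no test was made of them. All genes tested were not matched to the members in level. The median log2 fold change of the 7 tested members was 1.53, with 6 above 0, and that of all genes tested was 0.01. The count models, which compare means of counts and not of logs, gave the members a median of 0.79 (edgeR) and 0.76 (DESeq2), with 0.79 and 0.76 for Sox10 and 1.29 and 1.26 for Cdh19. Without WT replicate 2 the median of the members was 0.53.

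Ratios of reads within a sample show how closely the genes kept together, since they do not depend on the size factor. Cdh19 had 0.952 reads per read of Sox10 in WT replicate 1 (95% exact interval 0.490 to 1.85), 1.5 in WT replicate 2 (0.172 to 18) and 1.01 in WT replicate 3 (0.731 to 1.4). It had 1.39 in Elmo2EID/EID replicate 1 (1.07 to 1.82) and 1.52 in Elmo2EID/EID replicate 2 (1.04 to 2.24). The intervals of all 5 samples share common values, while the Sox10 level itself moved 43.2-fold. Ngfr had 3.86, 3.04, 3.85 and 4.67 reads per read of Sox10 in the samples other than WT replicate 2, where it had 15.5 (3.94 to 134), an interval that met that of WT replicate 3 (2.34 to 3.98) only at its edge. WT replicate 3 stood 43.2 times above WT replicate 2 in Sox10 and 8.47 times in Ngfr. Foxd3 per read of Sox10 ran from 0.615 in WT replicate 3 to 27.0 in WT replicate 2, and Mbp from 1.48 in Elmo2EID/EID replicate 1 to 42.0 in WT replicate 2. The ratio of S100b to Sox10 was 0.128 to 0.381 in the samples where it had reads.

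**Figure D3:**
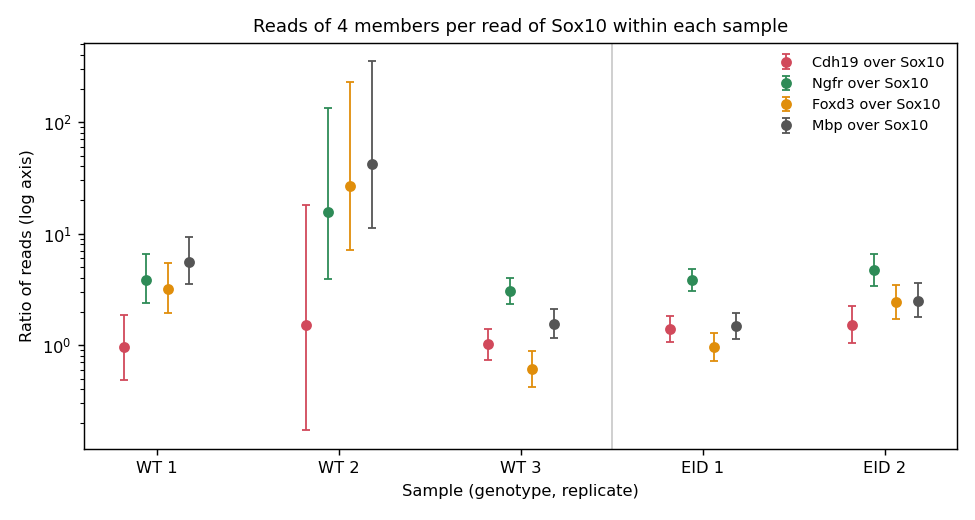
Reads of Cdh19, Ngfr, Foxd3 and Mbp per read of Sox10 within each sample, on a log axis, with 95% exact intervals. Cdh19 stays between 0.952 and 1.52 in all 5 samples, Ngfr between 3.04 and 4.67 outside WT 2, and Foxd3 and Mbp reach 27.0 and 42.0 in WT 2, where Sox10 has 2 reads.

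The promoters of 3 members could be read from the RefSeq promoter table (GRCm38.p6), and they are shown because they set 2 genes of the shared order, Ngfr and S100b, beside Foxd3, which did not follow it. Each is the stretch of 200 bases from 250 to 51 bases before the RefSeq start of the gene, 5′ to 3′ on its own strand. Capitals mark CANNTG, the letters of an E-box, which basic helix-loop-helix factors such as those of the muscle lineage can bind, and ACAANG on either strand, a core of SOX-type sites. The positions are chr4:99656049-99656248 on the plus strand for Foxd3, chr11:95587749-95587948 on the minus strand for Ngfr and chr10:76253586-76253785 on the plus strand for S100b.
Foxd3: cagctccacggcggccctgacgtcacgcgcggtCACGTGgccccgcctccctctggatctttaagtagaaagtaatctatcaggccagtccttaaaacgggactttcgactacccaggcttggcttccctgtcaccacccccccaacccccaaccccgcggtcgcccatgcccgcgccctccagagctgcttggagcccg
Ngfr: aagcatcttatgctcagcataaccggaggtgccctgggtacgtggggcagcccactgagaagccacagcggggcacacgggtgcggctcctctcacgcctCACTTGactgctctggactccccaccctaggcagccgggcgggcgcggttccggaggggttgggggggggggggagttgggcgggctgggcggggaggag
S100b: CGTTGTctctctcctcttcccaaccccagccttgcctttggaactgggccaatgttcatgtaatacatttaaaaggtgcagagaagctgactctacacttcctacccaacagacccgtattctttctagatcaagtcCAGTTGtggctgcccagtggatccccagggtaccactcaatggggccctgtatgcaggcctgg
Each stretch held 1 CANNTG match, at 217, 150 and 113 bases before the start in the same order, and 59% of the 32851 promoter stretches of this length in the table held at least 1. The ACAANG core was found once, in S100b at 250 bases before the start on the opposite strand, and 31% of all promoter stretches held it. Ngfr and Foxd3 were rich in G and C (70% and 64.5%, with 13 and 16 CpG pairs), whereas S100b had 52% and 2 CpG pairs. The letters matched are a description of these stretches and not of any factor bound there.

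Other genes of the Schwann lineage were read from lists. Of the 26 other Schwann cell markers, 21 were tested, and limma called 1 higher and 1 lower. Matn2, which encodes a matrilin of the extracellular matrix, rose from 166, 133 and 198 normalized counts in WT to 866 and 751 in Elmo2EID/EID (log2 fold change 2.29, standard error 0.18, limma adjusted p = 0.00234). Adam23, a receptor for LGI proteins, fell by 1.08 log2 units (standard error 0.19, limma adjusted p = 0.0428). DESeq2 called Matn2, Adam22 and Art3 higher and Adam23 and Scn7a lower. The 3 most abundant per kilobase were Nes, an intermediate filament gene also made by myoblasts, with a log2 fold change of -0.20, Art3 with 0.53 and the adhesion gene Cadm4 with -0.45, none of them called by limma. Of the 21, 12 were lowest in WT replicate 2, and 3 (Lgi4, Kcna1 and Cadm2) held the order of Sox10 in full.

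Genes outside the fixed rule were then named after their values were seen, because they ran close to Sox10 or define the lineage. Lgi4, a secreted Schwann cell protein needed for myelination, had 12.4, 6.73 and 67.1 normalized counts in WT, against 48.3 and 18.8 in Elmo2EID/EID. Kcna1, a potassium channel subunit, had 4.42, 2.24 and 34.8 in WT, against 32.2 and 19.7 in Elmo2EID/EID. WT replicate 3 was the highest sample for both, as it was for Sox10. Moxd1, a monooxygenase gene made in the neural crest lineage, had 87.5, 10.1 and 169 in WT, against 386 and 208 in Elmo2EID/EID. It was lowest in WT replicate 2, but WT replicate 3 lay below both Elmo2EID/EID samples, and it did not pass limma (adjusted p = 0.357). Others of the list ran differently. Dhh had 7.95, 3.37 and 13.7 in WT, against 17.9 and 33.2 in Elmo2EID/EID, so that both of these lay above all WT samples. Gpr37l1 was highest in WT replicate 2, at 13.5, and Gap43 was lowest in Elmo2EID/EID replicate 2, at 1.79.

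Several markers of mature myelin were at or near 0. Gjb1, a gap junction gene of myelinating Schwann cells, was at 0 in all 5 samples, and Mag, Ugt8a, Pllp and Cldn19 stayed below the filter. Of the 13 peripheral myelin genes, 8 were tested, none was called by limma or DESeq2, and their median log2 fold change was 0.15. The most abundant per kilobase were Drp2, Cnp and Pmp22, with log2 fold changes of -0.26, -0.09 and 0.42. Gfap, a filament gene of non-myelinating Schwann cells, had 1 read in 1 sample.

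Of the 16 other transcription factors of the Schwann lineage, 15 were tested and 2 fell. Egr2, the activator of the myelin program, had 396, 301 and 302 normalized counts in WT, against 149 and 158 in Elmo2EID/EID, a log2 fold change of -1.10 (standard error 0.16, limma adjusted p = 0.0226). Sox8, a close relative of Sox10, had 507, 513 and 329 in WT, against 202 and 178 in Elmo2EID/EID, a log2 fold change of -1.21 (standard error 0.21, limma adjusted p = 0.0407). WT replicate 2 was not set apart from the other WT samples in either gene. With 1 sample left out in turn, both kept their call only without WT replicate 3. DESeq2 called these and also Pax3 and Snai2, all lower. Jun, Zeb2 and Snai1, the most abundant per kilobase, had log2 fold changes of -0.14, 0.14 and 0.16 and were not called. Sox2, a factor of immature Schwann cells named here for its order, ran in the order of Ngfr and Cdh19 with 5.30, 1.12 and 14.9 normalized counts in WT, against 28.6 and 13.4 in Elmo2EID/EID. It was the 1 gene of the 15 with the order shared by the 5 members, though its 1 to 32 reads did not resolve every step.

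Partners of the member receptors were read next. Of 18 other neuregulin and ErbB genes, 15 were tested, 1 fell and none held the order. That gene was Egfr, the EGF receptor, at 723, 632 and 559 normalized counts in WT, against 371 and 340 in Elmo2EID/EID (log2 fold change -0.84, standard error 0.13, limma adjusted p = 0.0290). DESeq2 called Bace1 higher and Egfr, Errfi1 and Areg lower. Erbb2, which signals together with ERBB3, had 8612, 8826 and 7696 in WT, against 8881 and 8779 in Elmo2EID/EID, and Adam10, a protease that sheds ErbB ligands, and Errfi1, an inhibitor of the receptors, had log2 fold changes of 0.12 and -0.46 with no call by limma.

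Of 12 neurotrophin ligands and receptors, 9 were tested and none was called by limma or DESeq2, and the receptors Ntrk2 and Ntrk3, with which NGFR can act, were below the filter. Maged1 and Bex3, whose proteins bind NGFR, and Sort1, its co-receptor for precursor neurotrophins, were abundant with log2 fold changes of -0.14, 0.03 and 0.01. Of 10 GDNF family genes, 8 were tested and limma called none, while DESeq2 called Ret and Gfra1 lower. Ret, the signalling receptor with which GFRA3 acts, had 548, 260 and 244 normalized counts in WT, against 93.9 and 88.8 in Elmo2EID/EID (limma adjusted p = 0.0524). Ncam1, Gfra1 and Gfra2, the most abundant per kilobase, had log2 fold changes of -0.05, -1.02 and 0.11. Gdnf, a ligand of RET and the 1 gene of the 8 with the order shared by the 5 members, had 45.1, 42.6 and 55.9 normalized counts in WT, against 82.3 and 46.6 in Elmo2EID/EID.

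Markers of other lineages were read in the same way. The melanocyte genes Tyr and Dct were at 0 in all samples, Tyrp1 and Mlana had 1 read in 1 sample each, and the 3 of 9 listed genes that passed the filter, Mitf, Pmel and Ednrb, were not called by limma or DESeq2. Mitf, a transcription factor of pigment cells, had 517 to 700 normalized counts. Ednrb, an endothelin receptor of neural crest cells, had 1.77, 0 and 8.70 in WT, against 13.4 and 19.7 in Elmo2EID/EID (log2 fold change 2.53, limma adjusted p = 0.264), so that it too was lowest in WT replicate 2. The part of these cells in the levels of the members was not tested. The 6 oligodendrocyte markers, among them Mag, Mog and Nkx6-2, summed to 1.24 to 2.24 normalized counts in WT and 1.79 to 2.69 in Elmo2EID/EID, and Mobp and Opalin were at 0. Of the neuron markers Snap25 and Chat were at 0. Of the 7 neuron markers tested limma called 1, Nefm, a neurofilament gene, which fell by 2.22 log2 units (standard error 0.32, adjusted p = 0.0237), while Tubb3 and Nefl had log2 fold changes of -0.26 and -2.77 with no call by limma. DESeq2 called Nefm and Nefl lower and Stmn2 higher, the last at 13.3, 11.2 and 22.4 normalized counts in WT, against 62.6 and 49.3 in Elmo2EID/EID (log2 fold change 1.82, limma adjusted p = 0.0609, edgeR adjusted p = 0.0446). The median log2 fold change of the 7 was 0.47. Elavl3 was the 1 gene of the 7 in the order of Sox10, with 11.5, 11.2 and 29.8 normalized counts in WT, against 24.1 and 23.3 in Elmo2EID/EID. Its 13 and 10 reads in WT replicates 1 and 2 did not resolve that step. Among 5 tested perineurial markers none was called, and Tjp1, Slc2a1 and Itgb4 had log2 fold changes of 0.01, -0.01 and 0.07.

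Most endothelial and fibro-adipogenic progenitor markers were also lowest in WT replicate 2. The 12 endothelial markers, all tested, summed to 403 to 1345 normalized counts in WT and 3180 to 4643 in Elmo2EID/EID, and 11 of the 12 were lowest in WT replicate 2. None held the order of Sox10. Cdh5, a cadherin of endothelial junctions, had 281, 59.4 and 297 in WT, against 727 and 1001 in Elmo2EID/EID, and Pecam1 and Emcn ran likewise. WT replicates 1 and 3, which differed 5.23-fold in Sox10, were thus close in Cdh5, and Elmo2EID/EID replicate 2 lay above replicate 1. Limma called none of the 12, and DESeq2 called 5 higher (Flt1, Tie1, Erg, Vwf and Esam). Fibro-adipogenic progenitor markers, of which 7 of 9 were tested and none called, summed to 225 to 1498 in WT and 1163 to 1289 in Elmo2EID/EID, with 5 at their lowest in WT replicate 2 (Dpt tied at 0 with other samples), none in the order, and Lum at 1 read or 0. In their list Pdgfra had 758, 120 and 505 in WT, against 275 and 542 in Elmo2EID/EID, and Ly6a and Col15a1 were also lowest in WT replicate 2. The part of endothelial and fibro-adipogenic cells in those levels was likewise not tested.

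No tested gene of the remaining lists held the order of Sox10. Lowest in WT replicate 2 were 4 of 8 tested pericyte and smooth muscle markers, 2 of 10 skeletal muscle markers and 0 of 5 macrophage markers, beside 22.2% of all genes. The summed level of the macrophage markers was highest in Elmo2EID/EID replicate 1, at 207 against 28.6 to 62.8 in the WT samples and 40.3 in Elmo2EID/EID replicate 2. Lyz2, a macrophage lysozyme gene, had 134 normalized counts in that sample, C1qa had 14.3, Cd68 had 34.0 there and 35.0 in Elmo2EID/EID replicate 2, and limma called none of the 5 tested genes. Of 8 tested pericyte and smooth muscle markers 2 fell, Rgs5 (log2 fold change -2.97, limma adjusted p = 0.00759) and Notch3 (-1.55, limma adjusted p = 0.0280), while Acta2, Abcc9 and Mcam had log2 fold changes of -0.09, -0.16 and 0.61. Of the 10 skeletal muscle markers 1 fell, Pax7, the satellite cell factor (log2 fold change -1.35, standard error 0.15, limma adjusted p = 0.00764), and the most abundant, Acta1, Myh3 and Des, had log2 fold changes of 0.00, -0.22 and -0.12.

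**Figure D4:**
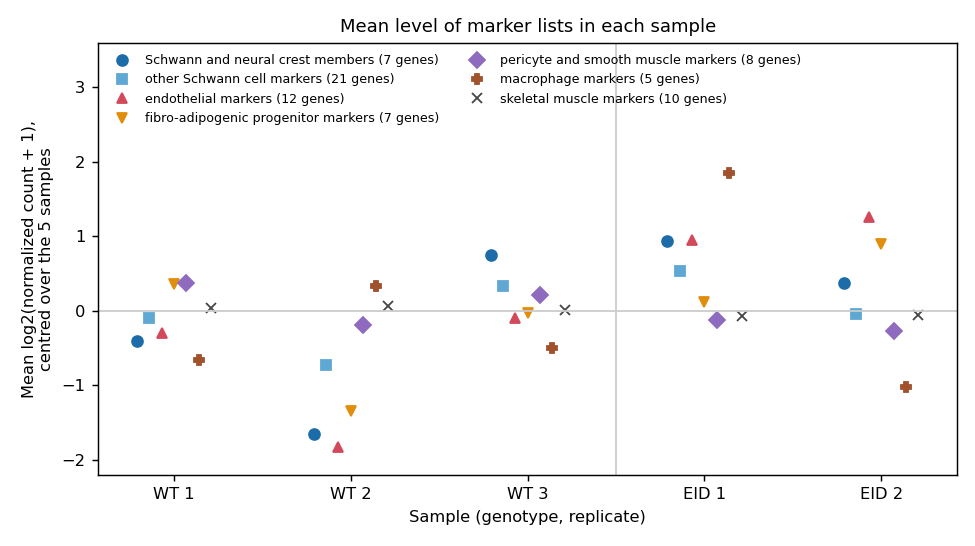
Mean level of each marker list in each sample, as log2(normalized count + 1) centred over the 5 samples for each gene and averaged over the tested genes of the list. The Schwann and neural crest members (blue circles) run from -1.65 in WT 2 to 0.94 in EID 1 with WT 3 at 0.75, the endothelial markers (red triangles) from -1.83 in WT 2 to 1.26 in EID 2 with WT 3 at -0.09, and the skeletal muscle markers (crosses) stay near 0.

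Outside all lists, 12344 protein-coding genes whose mean reached 20 normalized counts were ranked by how near their centred log2 values lay to the mean profile of the 7 tested members over the 5 samples. The 6 nearest were Sparcl1, Aldh1a7, Mlph, Spata13, Cish and Serpinb9b, with root mean square differences of 0.17 to 0.31 log2 units. Sparcl1, a secreted matrix-associated protein gene, had 35.3, 12.3 and 70.9 normalized counts in WT, against 106 and 52.0 in Elmo2EID/EID. Its order over samples was that of Ngfr and Cdh19, over a range of 8.63-fold. None of the 6 was called by limma.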

How the data were processed

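RNA-seq of primary mouse myoblasts was analysed (WT n = 3, Elmo2EID/EID n = 2). The authors purified RNA with RNeasy columns, made stranded poly-A libraries, aligned untrimmed read pairs to GRCm38 with STAR 2.5.1b after FastQC 0.11.5, counted unique reads on the reverse strand with featureCounts 1.4.6, and normalized with DESeq2 1.34.0. The deposited unit is a signal, the count divided by the size factor of the sample. Dividing by the smallest positive value of each sample gave whole reads for 100% of values within 0.01 of a read. No column was left unmapped. Replicates of a genotype differed beyond sampling noise (chi-square per degree of freedom 26.6 to 37.8).

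Two-sided limma 3.58.1 (lmFit and eBayes with a trend, R 4.3.3) was run on log2(normalized count + 1) for genes that reached 5 normalized counts in 1 sample or more, with p-values adjusted by Benjamini-Hochberg over all 18156 genes and a threshold of 0.05. The fit was tested on simulated data. Alternatives were pseudocounts of 0.5 and 5, no filter, a filter of 10 in 2 samples, equal totals, TMM, edgeR 4.0.16 and DESeq2 1.42.0 on the recovered reads, the replicate number as a block, and each sample left out. Intervals of ratios are exact, conditional on the sum of the reads. Python 3.11.15 with scipy 1.17.1 was used. GENCODE M21 matched 54165 of the 54232 identifiers, and exon lengths are the union of its exons.

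The members and lists were chosen with earlier results of these data known. The rule for named genes takes all 8 members, from each list its called genes (at most 4) and its 3 most abundant per kilobase, the 6 genes nearest to the mean member profile, and Elmo2. Other genes, such as those that DESeq2 alone called, defining markers at or near 0 and genes in the order of the members, were named after their values were seen. Mag stands in 2 lists. RefSeq promoter entries matched 3 of the 8 members. Some listed genes are not reported here.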

Additional observations from a re-analysis of the deposited data

How the results depend on the processing

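Over the 14 alternatives, the log2 fold changes of the 7 tested members kept their direction and their side of the threshold in 94 of 98 values. That of Mbp turned to -0.07 without WT replicate 2 and to -0.082 without Elmo2EID/EID replicate 1, in a range up to 0.27 with other samples left out. The count of 404 genes called was 155 with no filter on low values, 969 with DESeq2 and 34 to 335 with a sample left out, lowest without Elmo2EID/EID replicate 2. It was 134 without WT replicate 1, 203 without WT replicate 2 and 94 without Elmo2EID/EID replicate 1. With any sample left out, 0 members were called. The members' median log2 fold change was 0.53 to 2.30, lowest without WT replicate 2 and highest without WT replicate 3.

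A block on the replicate number let 224 genes and 2 members pass, Ngfr (log2 fold change 2.37, limma adjusted p = 0.0167) and Cdh19 (3.34, limma adjusted p = 0.0366). WT replicate 3 has no partner in that fit and adds nothing to the difference. Same-numbered samples share only a number, and across 11223 genes the step from replicate 2 to replicate 1 was correlated at -0.312 between the genotypes, over genes that are not independent replicates.

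Of the 9 called genes of the lists, Matn2, Pax7 and Rgs5 passed in 12 of 14 alternatives. Adam23, Egfr, Egr2, Nefm, Notch3 and Sox8 passed in 8 to 10, and all 6 were lost with no filter on low values, Adam23 and Egr2 also with the block. With a sample left out in turn, the first 3 passed in 3 of the 5 fits and the other 6 in 1 or 2. At 2 reads of Sox10, 3 of Cdh19 and 0 of S100b, depth limits the ratios of these 3 genes that involve WT replicate 2.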

Other observations

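Ranked instead against the mean profile of Sox10, Cdh19, Ngfr and S100b, a profile chosen after the values were seen, the nearest of the 12344 genes outside the lists were Slitrk6, Nkd2, Kcna6, Pcdh20, Slfn5 and Selp, with root mean square differences of 0.19 to 0.50 log2 units. Slitrk6, a transmembrane protein gene of the nervous system, had 19.4, 2.24 and 55.9 normalized counts in WT, against 76.9 and 43.0 in Elmo2EID/EID. Pcdh20, a protocadherin gene, had 33.6, 10.1 and 149 in WT, against 197 and 124 in Elmo2EID/EID. Nkd2, an inhibitor of Wnt signalling, had 26.5, 7.85 and 123 in WT, against 123 and 69.9 in Elmo2EID/EID. Kcna6, a potassium channel subunit gene of the family of Kcna1, had 7.07, 1.12 and 42.3 in WT, against 33.1 and 22.4 in Elmo2EID/EID. All 4 were lowest in WT replicate 2, with WT replicate 1 next, and none was called by limma.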
